A study of Mus musculus with 4 samples.

Results

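Chromatin regions that were less open in T cells of cyclophosphamide-treated transplant recipients, in the CD4 and in the CD8 compartment alike, numbered 2459 of the 44523 ATAC peaks that could be compared and of 148283 deposited peaks. Members were chosen by these ATAC counts themselves: a peak entered the set when it held at least 100 counts over all cells and at least 20 in each compartment, and when its CPM (counts scaled by the total in peaks of the library and compartment) were at least 1.5-fold lower in the treated library in both compartments. The members thus amount to 5.52% of the peaks compared. The same size rule in the opposite direction held for 1488 peaks, or 3.34%. The 2 shares are not a balance of gains and losses, because the untreated library was several times deeper and a peak that is high there reaches the minimum counts more easily.

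The cells came from bone marrow of C57Bl/6 mice 14 days after transplantation of C3H.SW donor cells, made up of 5000000 from marrow, 500000 CD4 T cells and 500000 CD8 T cells (alloBMT). The treated group had the same transplant followed by 50 mg/kg cyclophosphamide on days 3 and 4 (PT-Cy). In each group 4 mice were pooled before their T cells were sorted, and RNA and transposase-accessible DNA were read from the same nuclei on the 10x Multiome platform. No age or further genotype is given in the sources used here, and a host's own surviving T cells cannot be told from donor T cells by these labels. With 1 library per group and assay, no difference below has a replicate check, no test was made, and every interval given is an exact 95% one for counting error alone.

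ATAC-seq marks DNA that a transposase can reach, which in T cells means promoters and the enhancers, often inside introns or between genes, where transcription factors keep nucleosomes apart. T cells that see their antigen for long, as alloreactive cells do in a transplant recipient, are known to take on a chromatin state called exhaustion, with TOX, NR4A, NFAT and BATF factors and inhibitory receptors such as PD-1. Cyclophosphamide given early after a transplant kills dividing cells, and alloreactive T cells divide at that time.

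The deposited table assigns 926 alloBMT and 284 PT-Cy cells to the CD4 set and 1865 and 512 to the CD8 set, with ATAC totals between 1538967 and 16605930 counts. Median counts per cell were 6874 and 7841 in the alloBMT sets against 4091 and 4615 in the PT-Cy sets. The median percent of fragments in peaks was 66.65 and 65.4 against 58.25 and 58.5. RNA counts covered the CD4 set alone, with 3027967 and 1264107 UMIs. All 6 T cell genes checked had RNA in both libraries, at 5157 CPM in alloBMT and 3501 CPM in PT-Cy. RNA of 5 neutrophil genes summed to 29.1 CPM in alloBMT and 207 CPM in PT-Cy, and that of 5 red cell genes, of which 3 and 5 were detected, to 191 and 741 CPM. Peaks at those 5 neutrophil genes summed to 1.58 and 3.90 CPM in the CD4 set, whereas a longer list of 8 neutrophil genes had 4 peaks that summed to 53.8 and 33.8 CPM. No member lay at a neutrophil, B cell, NK cell or monocyte gene of these lists. The part of such cells in the results was not tested. Accessibility at CD8 genes in the CD4 set was 21.3% of that in the CD8 set for alloBMT and 32.5% for PT-Cy. The part of CD8 cells in the CD4 set was not tested beyond leaving out CD4 cells with a Cd8b1 UMI. After that 2210 members were found, of which 1806 were members before. The libraries share 2 cell barcodes.

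Few members were promoters, and the sequences of 6 of those that were are printed here, because they show the kind of start site that was less open. The table of RefSeq promoters (assembly GRCm38.p6, 250 bases before to 50 after each start) overlapped 78 members, or 3.17%, against 23.0% of all peaks compared. Pvrig encodes an inhibitory receptor of T and NK cells, Kif26b a kinesin-family protein, and Dgkg a kinase that removes the second messenger diacylglycerol. Pvrig and Kif26b are among the 6 promoter members with the most counts, and Dgkg is among the members at T cell receptor signalling genes. Osgin1, Dclk1 and Plscr4 were chosen after their values were seen, for the motifs they hold. Capitals mark matches, on either strand, to 1 of 6 motifs searched: AP-1 (TGANTCA), RUNX (TGTGGTT), NR4A (AAAGGTCA), T-box (TCACACCT), NF-kB (a 10-letter site) and ETS (ACTTCCGG). The sequences run 5′ to 3′ on the strand of the gene.
Dgkg, chr16:22657182-22657481, minus strand: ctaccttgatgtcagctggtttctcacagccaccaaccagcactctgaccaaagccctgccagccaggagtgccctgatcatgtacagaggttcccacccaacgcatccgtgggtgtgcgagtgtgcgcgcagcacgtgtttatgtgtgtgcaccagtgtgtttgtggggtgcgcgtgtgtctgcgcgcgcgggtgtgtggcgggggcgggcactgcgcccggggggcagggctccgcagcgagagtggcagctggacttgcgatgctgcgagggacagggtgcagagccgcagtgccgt
Pvrig, chr5:138341681-138341980, plus strand: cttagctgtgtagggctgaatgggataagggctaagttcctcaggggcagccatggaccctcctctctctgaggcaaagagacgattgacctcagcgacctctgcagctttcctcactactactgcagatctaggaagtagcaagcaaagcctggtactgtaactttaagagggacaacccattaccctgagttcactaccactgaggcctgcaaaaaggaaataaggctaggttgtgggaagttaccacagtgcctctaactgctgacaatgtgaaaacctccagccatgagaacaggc
Kif26b, chr1:178528875-178529174, plus strand: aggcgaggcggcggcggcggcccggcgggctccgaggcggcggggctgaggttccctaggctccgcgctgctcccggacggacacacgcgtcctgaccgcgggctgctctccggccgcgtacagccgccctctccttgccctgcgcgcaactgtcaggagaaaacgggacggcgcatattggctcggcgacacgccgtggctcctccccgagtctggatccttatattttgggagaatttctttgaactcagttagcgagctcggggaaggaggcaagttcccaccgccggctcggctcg
Osgin1, chr8:119436897-119437196, plus strand: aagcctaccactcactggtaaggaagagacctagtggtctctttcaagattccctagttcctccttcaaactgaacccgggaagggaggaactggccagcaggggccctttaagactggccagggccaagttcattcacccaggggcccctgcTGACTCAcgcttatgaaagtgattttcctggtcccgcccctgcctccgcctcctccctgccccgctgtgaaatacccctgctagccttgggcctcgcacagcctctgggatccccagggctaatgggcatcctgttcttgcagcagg
Dclk1, chr3:55461478-55461777, plus strand: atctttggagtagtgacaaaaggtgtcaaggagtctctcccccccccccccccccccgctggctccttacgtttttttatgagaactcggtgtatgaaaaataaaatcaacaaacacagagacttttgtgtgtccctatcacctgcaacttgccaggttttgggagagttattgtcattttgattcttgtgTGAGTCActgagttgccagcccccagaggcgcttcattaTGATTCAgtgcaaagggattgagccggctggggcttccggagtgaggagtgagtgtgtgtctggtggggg
Plscr4, chr9:92457128-92457427, plus strand: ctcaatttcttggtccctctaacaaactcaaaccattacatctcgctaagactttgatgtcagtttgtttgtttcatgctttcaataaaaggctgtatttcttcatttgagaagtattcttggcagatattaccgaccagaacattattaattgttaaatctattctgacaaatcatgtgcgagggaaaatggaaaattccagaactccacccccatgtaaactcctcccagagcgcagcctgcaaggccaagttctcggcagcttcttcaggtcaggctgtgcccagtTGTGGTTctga

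The promoters of Dgkg, Pvrig and Kif26b hold none of the 6 motifs. That of Osgin1 holds 1 AP-1 match, that of Dclk1 holds 2, and that of Plscr4 holds 1 RUNX match downstream of the start site. AP-1 matches stood in 4 of the 55 promoters that lie wholly inside a member, or 7.27% (2.02 to 17.6), in 4.34% of 11956 promoters inside any peak compared, and in 7.81% of all 32851 promoters. RUNX matches stood in 7 of 55, or 12.7% (5.27 to 24.5), against 3.78% and 5.27%. ETS matches stood in 4 of 55, or 7.27%, against 8.80% and 3.89%. NR4A and T-box matches stood in 1 of 55 each, or 1.82%, against 0.820% and 1.51% for NR4A and 0.795% and 1.28% for T-box. NF-kB matches stood in 0 of 55, against 0.142% and 0.0974%. The numbers of promoters are small, and a match describes letters, not a bound site. Motifs in the distal members were not searched, because no genome sequence was used here.

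The promoter peak of Dgkg (chr16:22656395-22657486) stood at 22.9 CPM in alloBMT and 6.50 CPM in PT-Cy CD4 cells, and at 18.1 and 10.3 CPM in CD8 cells. The log2 ratio of PT-Cy to alloBMT was -1.82 (-2.91 to -0.90) in CD4 and -0.82 (-1.39 to -0.29) in CD8 cells. Dgkg RNA, which the choice of members did not use, was 88.8 CPM in alloBMT and 12.7 CPM in PT-Cy CD4 cells, a log2 ratio of -2.81 (-3.64 to -2.09). The Pvrig promoter was at 29.5 and 12.3 CPM in CD4 and at 27.5 and 15.7 CPM in CD8 cells, and its RNA at 36 and 3 UMIs, a log2 ratio of -2.32 (-4.67 to -0.66). The Kif26b promoter was at 18.9 and 8.45 CPM in CD4 and at 27.9 and 17.96 CPM in CD8 cells, with 45 RNA UMIs in alloBMT against 1 in PT-Cy. RNA of Pvrig and Kif26b rested on few UMIs. Over all genes with at least 100 UMIs, 9.5% were at least 1.5-fold lower and 12.5% higher in RNA. Genes whose promoter overlapped a member were taken 1 per peak, leaving out predicted names and chromosomes 18, X and Y. Of these, 5 had at least 100 UMIs, of which 2 were at least 1.5-fold lower in RNA and 0 higher. Dgkg was 1 of the 2, and Klk1b22, of a family of near-identical genes, the other. The remaining 3, named after their values were seen, were Clcn3 at 389 and 226 UMIs (log2 ratio 0.48, 0.23 to 0.72), Gon4l at 604 and 239 (-0.08, -0.30 to 0.14) and Ifi214 at 121 and 52 (0.04, -0.46 to 0.52), so a less open promoter did not always go with lower RNA. The other promoter members among the 6 with the most counts were at B3galt5, with 281 alloBMT and 38 PT-Cy counts in CD4 and 726 and 89 in CD8 cells, at Svip, with 297 and 40 and 670 and 76, at Slc9b2, with 373 and 43 in CD8 cells, and at Atcayos.

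**Figure D1:**
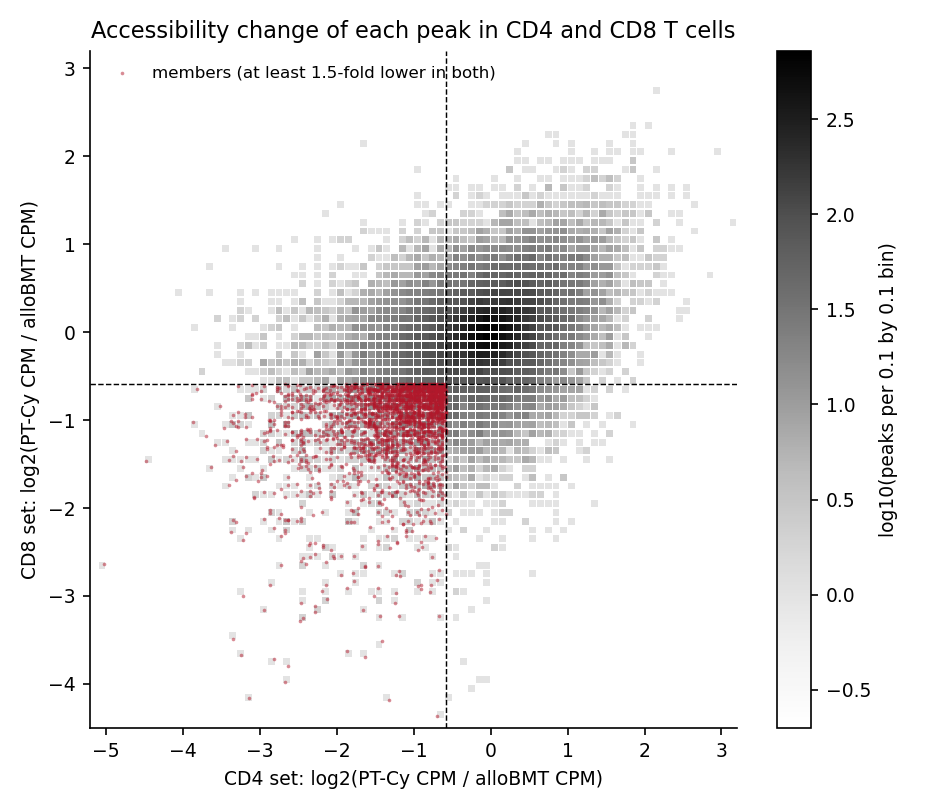
Each grey square is a bin of peaks, darker where more of the 44523 peaks fall. Bins are placed by the log2 ratio of PT-Cy to alloBMT CPM in the CD4 set (x axis) and the CD8 set (y axis). Red points are members with counts in both ATAC libraries in each set. The dashed lines mark 1.5-fold lower. Members fill the lower left corner by construction, and the cloud of all peaks is centred near 0 on both axes.

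Members had low counts in general. The median member had 165 alloBMT and 15 PT-Cy counts over all T cells, 179 in all, against 286 over all peaks compared, and the highest had 2030. Median CPM went from 6.45 in alloBMT to 2.60 in PT-Cy CD4 cells and from 7.29 to 3.53 in CD8 cells. The median log2 ratio of members was -1.18 (quartiles -1.63 and -0.86) in CD4 and -0.94 (-1.28 and -0.73) in CD8 cells, against -0.05 and -0.02 over all peaks, values that the choice of members sets. In 1617 members the ratio was lower in the CD4 set than in the CD8 set. A 2-fold limit in both sets left 756 members, and a 4-fold limit left 64. The interval lay below 0 in both sets for 783 members, and wholly past 1.5-fold in both for 85, so a single member is rarely fixed by its own counts. Of the peaks at least 1.5-fold lower in CD4 cells, which were 18.6% of those compared, 29.7% were members, and of those lower in CD8 cells, which were 11.9%, 46.4% were. Over 44443 peaks the 2 log2 ratios had a Pearson correlation of 0.387, a description of peaks that share libraries, depth and preparation.

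Just inside the limit 20 members were tied at a CD4 log2 ratio of -0.59, and 19 of them, such as those near Rabif and Gpr158, had 34 alloBMT and 5 PT-Cy counts in CD4 cells. The 3 peaks just outside it, next to Tgfb1 at 1.98 kb, near Dusp5 and in Tmem171, had CD8 log2 ratios of -0.58 with 527 against 66, 407 against 51 and 319 against 40 counts. The 3 outside were better counted, and the line between them carries no meaning of its own.

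Members lay away from gene ends. Within 2 kb of either end of a protein-coding gene were 289 members, or 11.8% (10.5 to 13.1), against 34.5% of all peaks compared, and a gene end fell inside 2.64% of members against 22.8% of all peaks. The bin from 10 to 50 kb held 42.7% of members and 30.0% of all peaks. Inside a gene body and over 2 kb from its ends were 58.6% of members against 38.1%, while the shares overlapping any gene were alike, at 66.4% and 68.4%. The median distance to a gene end was 14281 bases for members and 6475 for all peaks, but 14802 for peaks more open in PT-Cy, so the distance is shared with those. Depth moves with position, since gene ends hold the highest peaks. Among peaks under 300 counts the share within 2 kb was 11.4% of members and 18.7% of all, and from 300 counts it was 12.8% and 51.3%. Peaks at least 1.5-fold more open in PT-Cy lay within 2 kb of a gene end in 20.2%, between both. Members made up 7.67% (6.72 to 8.71) of the peaks compared on chromosome 5 and between 4.33% (X) and 6.41% (16) on each other chromosome except Y, where 0 of 8 were members.

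**Figure D2:**
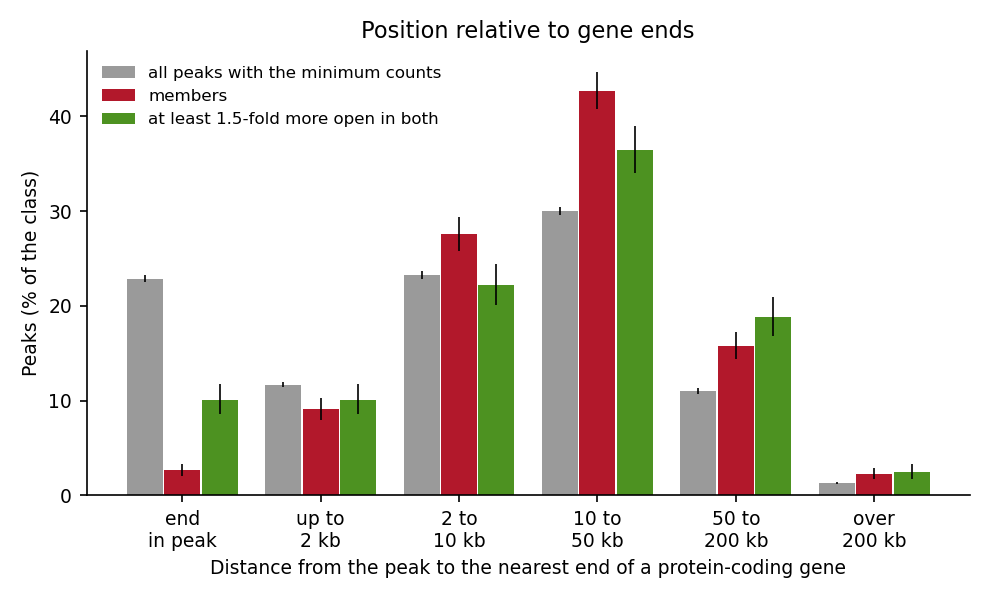
Percent of peaks (y axis) by distance to the nearest end of a protein-coding gene (x axis), for all peaks compared (grey), members (red) and peaks at least 1.5-fold more open in both sets (green), with exact 95% binomial intervals. Members are scarce where an end lies in the peak (2.64%) and most frequent between 10 and 50 kb (42.7%).

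Some members lay close to one another. Within 50 kb of another member lay 928 of them, or 37.7%. Of the 1488 more open peaks 35.8% lay as close to another of their kind, so closeness is not particular to members. Of all 44523 peaks compared 94.7% did, but this share rises with the number of peaks in a set and is no baseline for members. In all, 105 runs of at least 3 members, with gaps of at most 50 kb, held 387. The longest runs were looked up after the members were known. The longest, of 8 members, lay in Ppm1h, where 22 peaks were compared over 119 kb (chr10:122699399-122818133). Runs of 7 members each lay beside Sec14l1, which encodes a lipid-binding protein of the Sec14 family, and at Htra3, a secreted serine protease, and Sh3tc1. At Sec14l1 all 7 peaks compared over 27.7 kb (chr11:117082378-117110033) were members, with 638 alloBMT and 72 PT-Cy counts in CD4 and 1660 and 144 in CD8 cells. At Htra3 and Sh3tc1 all 7 peaks over 41.8 kb (chr5:35672413-35714226) were members, with 453 and 27 counts in CD4 and 1721 and 98 in CD8 cells, a log2 ratio of the sum of -1.89 (-2.51 to -1.33) and -1.72 (-2.03 to -1.43). Each stretch is set by its first and last member, and peaks there under the count minimums were not compared.

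Pdcd1, which encodes the inhibitory receptor PD-1, had 6 members among the 10 peaks compared over 35.1 kb (chr1:94040390-94075497). Of these, 3 lay in the gene, and 3 lay outside it on the side of its start, at 2.32, 3.02 and 21.6 kb. The farthest, chr1:94074193-94075497, was the highest, at 39.1 CPM in alloBMT and 14.3 CPM in PT-Cy CD4 cells and at 48.8 and 27.3 CPM in CD8 cells. Its log2 ratio was -1.45 (-2.15 to -0.83) in CD4 and -0.84 (-1.18 to -0.52) in CD8 cells. The peaks at 2.32 and 3.02 kb stood at 21.1 and 24.4 CPM in alloBMT in CD4 cells, with 17 and 18 counts left in PT-Cy, and at 26.3 and 32.8 CPM in alloBMT against 13.5 and 16.7 CPM in PT-Cy CD8 cells. All 3 upstream peaks had intervals below 0 in both sets, whereas 2 of the 3 inside the gene had CD4 intervals that reach above 0. Regulatory elements upstream of Pdcd1 are known to open in chronically stimulated T cells. Pdcd1 RNA was 223 CPM in alloBMT and 72.0 CPM in PT-Cy CD4 cells, a log2 ratio of -1.63 (-1.96 to -1.32).

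Cblb, a ubiquitin ligase that restrains T cell activation, was the nearest gene of 9 members, as many as Pdzd2. Only 3 of the 9 lay in Cblb. The other 6 stood together over 85.1 kb (chr16:51683223-51768277) at 263 to 347 kb from the gene, where 10 peaks were compared. These 6 summed to 323 alloBMT and 20 PT-Cy counts in CD4 and to 892 and 86 in CD8 cells, log2 ratios of -1.83 (-2.56 to -1.18) and -0.96 (-1.30 to -0.64). Cblb RNA was 2363 CPM in alloBMT and 814 CPM in PT-Cy CD4 cells, a log2 ratio of -1.54 (-1.63 to -1.44). Distance alone ties this run to Cblb, and no contact was measured.

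Of 13 genes with at least 5 members inside them, those described are Pdzd2, Ppm1h, Farp1, Ralgapa2, Plekha5, Prkca, Rbm19, Srgap3 and Tmem135, with 9 to 5 members each. No peak more open by the same rule lay in any of these 9. Such peaks were 3.34% of all peaks compared, and these genes were picked for their less open peaks, so little is read from this. Pdzd2, a large PDZ-domain protein, had 9 members among 21 peaks, spread from 36.7 to 163 kb from its ends, and summed to 672 alloBMT and 61 PT-Cy counts in CD4 and to 1605 and 152 in CD8 cells. Its RNA was too low to compare, at 34 and 8 UMIs. Ppm1h, a protein phosphatase of the PP2C family, had 8 members among 27 peaks, the nearest 21971 bases from its ends, with 1 of them at 0 PT-Cy CD4 counts, the others at CD4 log2 ratios down to -2.91, and CD8 ratios from -3.04 to -0.79. Its RNA was 977 CPM in alloBMT and 551 CPM in PT-Cy CD4 cells, a log2 ratio of -0.82 (-0.95 to -0.71). Farp1, a guanine nucleotide exchange factor that activates small GTPases, had 7 members among 19 peaks and RNA of 333 and 127 CPM (-1.39, -1.64 to -1.15). Srgap3, which switches such GTPases off, had 5 members among 13 peaks and the largest RNA difference of the 9, from 370 to 85.4 CPM (-2.11, -2.41 to -1.83).

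The other genes of the 9 had RNA log2 ratios from -0.996 (Tmem135) to -0.02 (Rbm19). Ralgapa2, which inactivates Ral GTPases, had members at 6 of its 9 peaks and RNA of 436 and 306 CPM. Tmem135 had 5 of 12 and RNA of 299.9 and 150.3 CPM. Prkca, protein kinase C alpha, had 5 of 33 and RNA of 1265 and 828 CPM. Plekha5 had 5 of 13, with an RNA log2 ratio of -0.44. Rbm19, an RNA-binding protein of ribosome biogenesis, had 5 of 8, and its RNA of 56 and 23 UMIs gave a log2 ratio of -0.02 (-0.79 to 0.70). The Rbm19 interval includes RNA 1.5-fold lower, so these UMIs do not settle whether its RNA changed. Of all genes with at least 100 UMIs, 47.5% had an RNA log2 ratio below 0. Of the 25 of them with at least 4 members, 24 did. The exception, named after its value was seen, was Mad1l1, at 0.20 (-0.12 to 0.51).

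In summed cells, fewer cells of a type and less RNA per cell cannot be told apart. RNA of the CD4 cells is a readout from the same nuclei that the choice of members did not use. Genes with at least 100 UMIs numbered 6285, of which 9.5% were lower by 1.5-fold or more in PT-Cy and 12.5% higher. Among the 781 of these that hold a member, 152, or 19.5% (16.7 to 22.4), were lower and 9.86% higher. The share lower was 14.5% of 620 genes with 1 member, 27.1% of 107 with 2 and 48.3% of 29 with 3. With at least 3 members it was 61.1% (46.9 to 74.1) of 54 genes, with a median log2 ratio of -0.77 against 0.02 over all genes measured, and 1 of the 54 was higher. That gene, named after its value was seen, was Diaph3, a formin of the cell division machinery, at 106 CPM in alloBMT and 361 CPM in PT-Cy. With at least 4 members, 19 of 25 genes, or 76.0% (54.9 to 90.6), were lower and 0 higher. Genes with more members also have more peaks, so the split was repeated over genes with at least 10 peaks. There 11.5% of 130 genes with 0 members, 28.9% of 83 with 1 and 64.3% of 42 with at least 3 were lower. In the other direction, 33.7% of 329 genes that hold a more open peak had RNA at least 1.5-fold higher. Genes are not replicates, and the shares describe 1 pair of libraries.

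**Figure D3:**
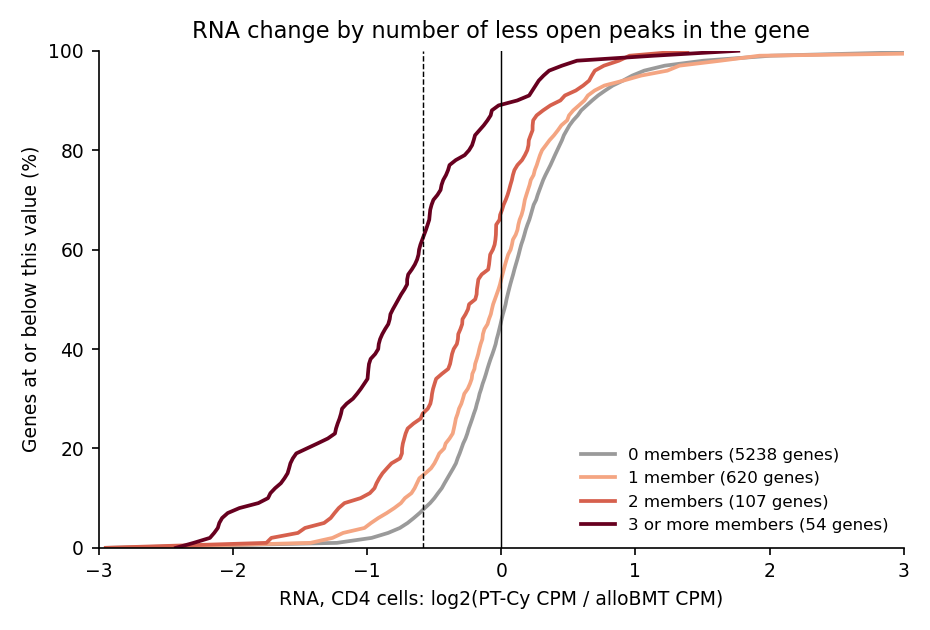
Cumulative percent of genes (y axis) against the log2 ratio of PT-Cy to alloBMT RNA in CD4 cells (x axis), for genes with 0, 1, 2 and at least 3 members and at least 100 UMIs. The dashed line marks 1.5-fold lower. The curves move left as members are added, with 48.3% of genes with exactly 3 members and 61.1% of those with at least 3 at least 1.5-fold lower.

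Genes of exhaustion and chronic stimulation held 17 members among the 211 peaks in or within 2 kb of them, or 8.06%, against 5.52% of all peaks compared, and 9 of 31 genes held at least 1. The list was not matched for position. Inside gene bodies and over 2 kb from gene ends, 1440 of 16965 peaks were members, so 8.06% is not read as an excess. Median log2 ratios over all 211 peaks were -0.28 in CD4 and -0.0020 in CD8 cells, so in CD8 cells the peaks of these genes were about as often higher as lower. Of the 31 genes, 22 had RNA at least 1.5-fold lower and 2 higher, against 11.9% lower and 18.7% higher of 10122 genes with at least 20 UMIs. Tox, the factor that sets up the exhausted state, had 4 members among 37 peaks. They lay 104 to 145 kb from the gene's ends, and the best counted had 70 and 9 counts in CD4 and 109 and 10 in CD8 cells. The strongest in CD4 cells, chr4:6831650-6832064, had 29 and 1. Tox RNA was 5850 CPM in alloBMT and 1943 CPM in PT-Cy CD4 cells, a log2 ratio of -1.59 (-1.65 to -1.53).

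Nr4a2, a nuclear receptor induced by antigen, had 1 member inside it at 18.2 and 11.7 CPM in CD4 and at 20.6 and 11.9 CPM in CD8 cells, and its RNA was 588 and 121 CPM. Batf, an AP-1 family factor, had 2 neighbouring members 1.36 and 1.84 kb from an end. The larger stood at 15.5 CPM in alloBMT and 5.198 CPM in PT-Cy CD4 cells and at 12.2 and 6.42 CPM in CD8 cells, with RNA of 142 and 87.0 CPM. Nfatc1, a factor driven by calcium signals, had 3 members among 22 peaks it overlaps, of which 1 had 46 alloBMT and 0 PT-Cy counts in CD4 cells and 65 and 4 in CD8 cells. The upper bound of its CD4 log2 ratio was -1.40, and Nfatc1 RNA was 600 and 256 CPM. Cd244a, an inhibitory receptor, held 1 member at 11.6 and 5.85 CPM in CD4 cells, with RNA of 45.2 and 19.0 CPM. Each of the 9 genes with a member had lower RNA in PT-Cy, by log2 ratios from -0.70 (Batf) to -3.06 (Il21, 60 and 3 UMIs).

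T cell receptor signalling genes held 20 members among 243 peaks, or 8.23%, against 5.52% of all peaks compared, in 10 of 27 genes. This share was not matched for position either, and no excess is read from it. Of the 27 genes, 8 had RNA at least 1.5-fold lower and 1 higher, against 11.9% lower and 18.7% higher of genes with at least 20 UMIs. Their RNA was thus more often lower, though not in each gene. Among the 10 with members, Cbl was at 186 CPM in alloBMT and 320 CPM in PT-Cy. Ubash3b, a phosphatase that dampens receptor signals, had 4 members among 26 peaks. The largest (chr9:41134585-41135899) stood at 23.5 and 7.80 CPM in CD4 and at 26.3 and 16.7 CPM in CD8 cells, with Ubash3b RNA at 711 and 217 CPM (-1.71, -1.90 to -1.53). Cd247, the zeta chain of the receptor, had 3 members, the largest at 21.9 and 5.85 CPM in CD4 and at 16.0 and 10.3 CPM in CD8 cells, with RNA of 1377 and 668 CPM. Ptpn22, a phosphatase that limits receptor signalling, had a member inside it, 4.12 kb from an end, at 33.0 and 10.4 CPM in CD4 and at 18.5 and 11.55 CPM in CD8 cells, with RNA of 995 and 605 CPM. Nfkb1 had 3 members and RNA of 445 and 526 CPM, so members there did not go with lower RNA.

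Stat3, which relays interleukin signals, had members at 4 of its 10 peaks. The highest in CD8 cells (chr11:100933788-100934472) stood at 36.3 and 20.9 CPM there and at 24.1 and 11.7 CPM in CD4 cells, and Stat3 RNA was 679 and 296 CPM (-1.20, -1.36 to -1.04). Costimulation and cytokine receptor genes as a list held 7 members among 147 peaks, or 4.76%, near the share of all peaks. Of the 29 genes, 5 had RNA at least 1.5-fold lower and 15 higher, against 11.9% and 18.7% of genes with at least 20 UMIs. Il2ra, the interleukin 2 receptor alpha chain, had 1 member over a gene end, at 26.7 and 7.80 CPM in CD4 and at 24.5 and 15.7 CPM in CD8 cells. Its RNA went the other way, from 23.1 to 137 CPM, and 2 other peaks of Il2ra were more open. RNA of 3 regulatory T cell genes summed to 675 CPM in alloBMT and 1736 CPM in PT-Cy, and their part in the Il2ra values was not tested.

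Effector and cytotoxic genes held 5 members among 93 peaks, or 5.38%, near the share of all peaks. Of 27 genes, 16 had RNA at least 1.5-fold lower and 7 higher. Over all 10122 genes with at least 20 UMIs these shares were 11.9% and 18.7%. Tbx21, the factor T-bet, had the best counted of the 5 members, at 18.8 and 7.80 CPM in CD4 and at 18.7 and 7.70 CPM in CD8 cells. Its log2 ratios were -1.27 and -1.28, yet Tbx21 RNA was 112 and 108 CPM. Prf1, perforin, had 1 member with 36 and 2 counts in CD4 and 142 and 11 in CD8 cells, with RNA of 249.7 and 104 CPM. Ccl5, a chemokine of effector cells, had 1 member with 28 and 1 counts in CD4 and 97 and 9 in CD8 cells, with RNA of 5243 and 1052 CPM. Stem-like, memory and naive genes held 2 members among 159 peaks, or 1.26%, and 22 more open peaks. Of all peaks compared 5.52% were members and 3.34% more open. In RNA 16 of 21 genes were higher and 0 lower, beside the shares over all genes given above. The 2 members lay in Tcf7, the factor TCF-1, at 10.9 and 7.15 CPM in CD4 cells, and in Pecam1, while RNA of Tcf7 was 27.7 CPM in alloBMT and 95.7 CPM in PT-Cy.

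In the remaining lists the shares of peaks are read against the 5.52% of all peaks compared. RNA is read against the 11.9% lower and 18.7% higher of all genes with at least 20 UMIs. Cell division genes had 3 among 43 peaks, or 6.98%, in Top2a, Kif11 and Tpx2, all with higher RNA in PT-Cy, as had 18 of 22 genes of the list and 0 with lower RNA. Cyclic nucleotide and lipid signalling genes had 8 among 138 peaks, or 5.80%, with Pde4a, Pde4b and Pde4d, enzymes that break down cyclic AMP, among them. AP-1, IRF and NFAT factors had 7 of 114, or 6.14%, in Batf, Nfatc1 and Rcan1, migration and adhesion genes 2 of 91, or 2.20%, both at the integrin gene Itgav, and p53 targets 1 of 23, or 4.35%, in Trp53inp1. Lists of other cell types held 0 members of 15 peaks for B cells, 0 of 4 for neutrophils, 0 of 8 for monocytes and macrophages and 0 of 9 for NK cells. RNA of these lists was at least 1.5-fold higher in PT-Cy in 5 of 5 neutrophil genes and 3 of 4 monocyte genes with at least 20 UMIs, and in 1 of 3 NK cell genes.

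The members with the strongest difference over all T cells, by the upper bound of the interval, were led by a Pde4d peak described below and by a peak over an end of Il33 (chr19:29959864-29961244). Il33 encodes an alarmin cytokine. That peak stood at 21.1 CPM in alloBMT and 0.650 CPM in PT-Cy CD4 cells, 147 counts against 1, and at 14.0 and 2.25 CPM in CD8 cells, 9.36-fold lower (4.70 to 21.8) over all T cells. All 3 peaks of Il33 compared were members, yet its RNA was 1 UMI in alloBMT and 0 in PT-Cy. A peak 6.82 kb from Htra3 had 79 and 4 counts in CD4 and 438 and 10 in CD8 cells, 7.29-fold lower (4.31 to 13.4). One in Hps1, a subunit of a complex for lysosome-related organelles, had 76 and 3 and 260 and 5 counts, 8.30-fold lower (4.16 to 19.4). The 12 leading members also included peaks in Asphd2, in Dusp16, a phosphatase of MAP kinases, and in Acvr2b, an activin receptor, at 5.33 to 7.54-fold lower. Hps1 RNA was 75 and 36 UMIs, a log2 ratio of 0.20 (-0.41 to 0.79), and RNA of Acvr2b and Asphd2 was 4 and 1 UMIs in alloBMT and 0 in PT-Cy.

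Peaks with almost no PT-Cy counts form the extreme of the set. Members with at most 3 counts over all PT-Cy cells numbered 21 and summed to 2616 alloBMT against 52 PT-Cy counts. Each had 97 to 194 alloBMT counts, for which an equal CPM would give 19.2 to 38.3 PT-Cy counts. A peak inside Pde4d (chr13:109760964-109761830, 194 kb from the gene's ends) was the 1 with none: 73 counts in CD4 and 121 in CD8 cells of alloBMT and 0 in both of PT-Cy, 12.8-fold lower against a floor of 3 counts over the library, and at least 10.3-fold lower by the bound of the exact interval. The next, in Ppm1h (chr10:122774788-122775473), had 59 and 0 counts in CD4 and 131 and 3 in CD8 cells, 12.5-fold lower (4.22 to 61.2). A peak in Usp37, a deubiquitinase, 0.722 kb from its end, had 38 and 0 and 132 and 3 counts, 11.2-fold lower (3.77 to 54.8). One in Taf2, a subunit of the basal factor TFIID, had 40 and 1 and 95 and 1 counts, 13.3-fold lower (3.62 to 111). The intervals of these single peaks are wide, and their order among themselves is not fixed by the counts.

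Others of the 21 lay in Med23 and Med27, subunits of Mediator, Tagln2, an actin-binding protein, Cplx1, Pakap, Mad1l1, a spindle checkpoint protein, Foxn3, Fam53a, Blm, a DNA helicase, and R3hdm2, and outside genes near Ccl1, Tshz2, Cblb, Cstdc2, Gins3, Man2a1 and 1700056E22Rik. In all, 14 lay in a gene and 3 within 2 kb of a gene end. RNA of the genes they lie in did not share a direction. Of the 12 genes with at least 100 UMIs, 2 were at least 1.5-fold lower, Pde4d at 804 and 475 CPM and Ppm1h. Higher by as much were 2, Tagln2 at 37.7 and 168.5 CPM and Blm at 42.6 and 68.0 CPM. Over all genes with at least 100 UMIs 9.5% were lower and 12.5% higher, so little is read from these counts. The peak near Cblb belongs to the distal run of 6.

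**Figure D4:**
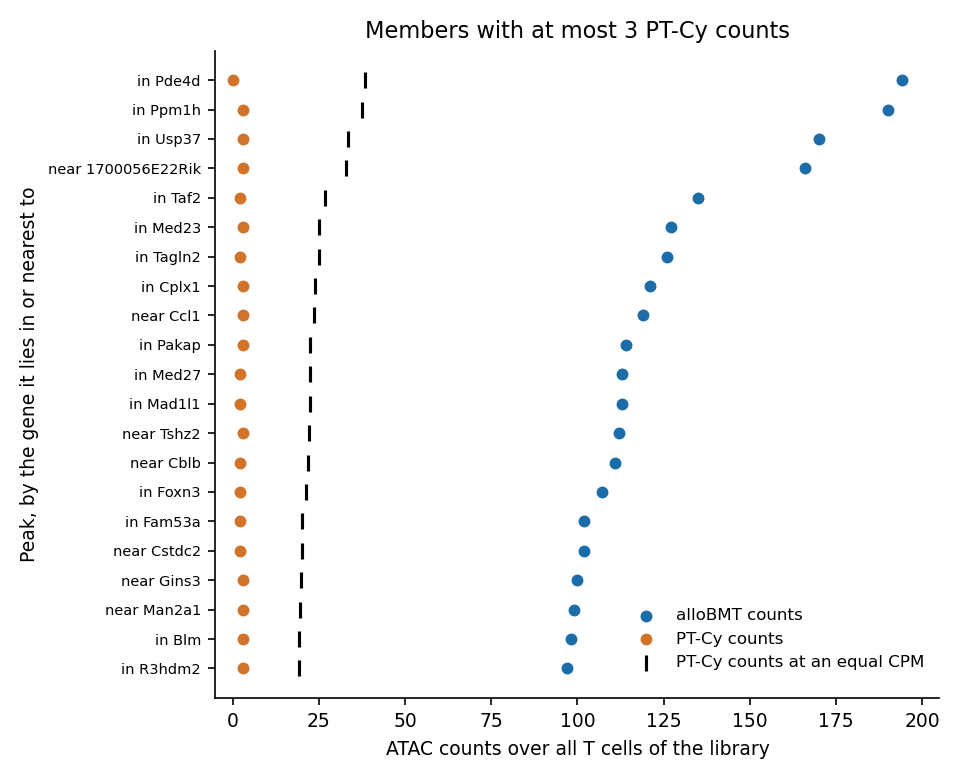
The 21 members with at most 3 PT-Cy counts, named by the gene they lie in or nearest to (y axis), with ATAC counts over all T cells (x axis) for alloBMT (blue) and PT-Cy (orange); black ticks mark the PT-Cy counts that an equal CPM would give. Blue points lie between 97 and 194 and orange points between 0 and 3, left of every tick.

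Counts in these peaks were spread over many alloBMT cells. At least 1 of the 21 had a count in 42.0% (38.8 to 45.3) of alloBMT CD4 cells and 5.63% (3.25 to 8.99) of PT-Cy CD4 cells, and in 49.6% (47.3 to 51.9) and 6.45% (4.48 to 8.93) of CD8 cells. The PT-Cy shares are set by the choice of these peaks, which held 52 PT-Cy counts in all. PT-Cy cells were also shallower, as given above, and the shares were not thinned to 1 depth. No size is read from their difference. No cell held more than 4 counts in 1 of the peaks. In the deposited clusters, CD4 cluster 1 carried 70.3% of their alloBMT CD4 counts but 44.8% of all counts of that set. The level there was 176.5 CPM, against 140.3 CPM in CD4 cluster 3 and 46.7 CPM in CD4 cluster 0. In CD8 cells cluster 3 carried 31.2% of their counts but 18.1% of all, at 190 CPM, and cluster 0 carried 36.0% against 32.5%, at 122 CPM. The clusters are numbered as deposited and are not named here.

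The same clusters were prominent for all members. Of alloBMT CD4 clusters with at least 100 cells, cluster 1 was the one with the highest CPM for 53.9% of members and for 31.9% of all peaks compared. Among alloBMT CD8 clusters, cluster 3 was highest for 37.9% of members and 17.8% of all peaks. Members took 2.66% of all counts in CD4 cluster 1 and 1.74% in CD4 cluster 0, and 3.05% in CD8 cluster 3 and 1.71% in CD8 cluster 5. PT-Cy has no cell in CD4 cluster 1 or CD8 cluster 0 and 1 cell in CD8 cluster 3. Clusters where members were less open are nearly absent from that library too, with 4 PT-Cy cells in CD4 cluster 0 and 1 in CD8 cluster 7. Those 2 were highest for 13.2% and 7.2% of members, against 31.8% and 19.4% of all peaks. Members were chosen for higher alloBMT than PT-Cy CPM, which by itself favours clusters found mainly in alloBMT. RNA of the 54 genes with at least 3 members was also highest in CD4 cluster 1, at 3.95% of alloBMT UMIs there and 2.55% to 3.27% in the other 4.

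Members were also lower within the clusters that hold at least 20 cells of both libraries. In CD4 cluster 2, with 42 alloBMT and 238 PT-Cy cells, members took 8376 of 464648 alloBMT counts and 0.931% of PT-Cy counts, a log2 ratio of -0.95 (-0.99 to -0.91). In CD4 cluster 4, with 34 and 31 cells, they took 1.76% and 0.928%. In CD8 clusters 1, 2, 5 and 6 the shares were 2.65% and 1.56%, 2.23% and 1.35%, 1.71% and 1.34%, and 1.82% and 1.01%. Below 1-fold in PT-Cy were 81.5% of members with at least 5 counts in CD4 cluster 2, against 48.0% of all peaks, and 71.5% in CD4 cluster 4, against 51.0%. In CD8 clusters 1, 2 and 6 the shares were 73.8%, 88.4% and 79.5% of members, against 57.0%, 49.7% and 49.4% of all peaks. The smallest excess was in CD8 cluster 5, with 58.8% against 47.7%. These cells also entered the choice of members, so the values describe where the difference sits and support nothing further. Counts per cell within these clusters were 0.931 to 2.03 times as high in alloBMT.

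**Figure D5:**
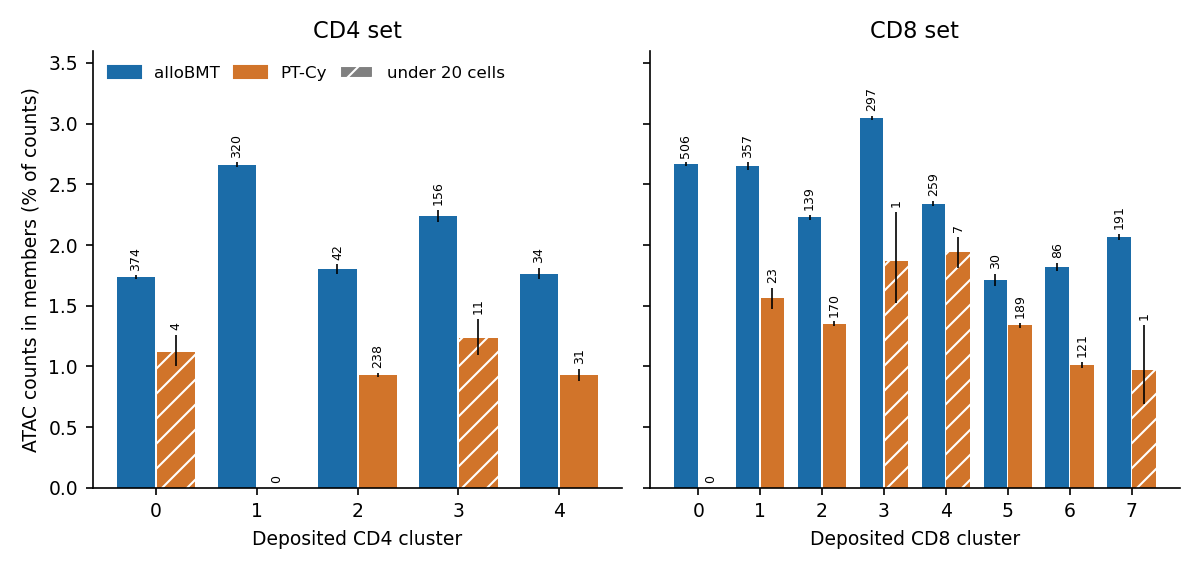
Percent of ATAC counts that fall in members (y axis) for each deposited cluster (x axis) of the CD4 set (left) and the CD8 set (right), in alloBMT (blue) and PT-Cy (orange), with exact 95% intervals for counting error and the number of cells above each bar; hatched bars rest on under 20 cells. Blue bars are highest in CD4 cluster 1 (2.66%) and CD8 cluster 3 (3.05%), and orange bars are lower than blue ones in every cluster with cells of both.

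RNA within the shared CD4 clusters was also more often lower at genes with members. Among genes with at least 100 UMIs in CD4 cluster 2, 8.47% of 2846 were at least 1.5-fold lower in PT-Cy, and so were 16.7% of 466 genes with a member and 46.8% of 47 with at least 3. In CD4 cluster 4 the shares were 12.05% of 498 genes, 25.5% of 106 and 55.0% of 20. Tox RNA was 4660 CPM in alloBMT and 1860 CPM in PT-Cy cells of cluster 2, and 4330 and 2490 CPM in cluster 4. Stat3 RNA was 513 and 295 CPM in cluster 2, and 651 and 271 CPM in cluster 4. Ubash3b RNA was 454 and 209 CPM in cluster 2, and 558 and 306 CPM in cluster 4. Other genes with members did not go this way in each cluster. Prkca RNA was 786 and 813 CPM in cluster 2 and 1350 and 954 CPM in cluster 4. In cluster 4 Ralgapa2 RNA was 279 and 328 CPM and Plekha5 RNA 155 and 192 CPM.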

How the data were processed

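RNA and ATAC were read from the same nuclei in 4 libraries, 1 per group and assay, grouped by the labels. Per the file headers, the deposited ATAC and RNA tables hold raw whole-number counts per cell for peaks and genes. The authors' per-cell table gives set, cluster, the fraction of fragments in peaks (printed as a percent) and TSS enrichment, a ratio, per the file headers; 52 of its 58 columns were not used. Cell Ranger ARC 1.0.1 and MACS2 are named, per the submitters' processing notes, beside GRCh38, a human build. Mouse promoters of GRCm38.p6 lay in a deposited peak in 51.5% of 32851 cases, against 8.48% to 9.42% after shifts of 2000 to 200000 bases, so positions are read as GRCm38. The sources used here do not give the cell filters or the treatment of doublets, and no doublet caller was run.

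For each library and set, counts of all cells were added up, turned into CPM and compared as log2 ratios with exact conditional binomial (Clopper-Pearson) intervals. The floor for 0 counts was 3. The PT-Cy totals of 1538967 and 3117872 ATAC counts limit the precision. The computation was tested on simulated data. Genes were assigned by overlap with RefSeq protein-coding genes, list genes by overlap or 2 kb. Named were the 12 members whose upper interval bound was lowest, those with almost no PT-Cy counts, 10 genes with the most members (ties broken by their counts; 1 is not reported here), up to 4 members per list, 6 promoters and 3 peaks on either side of the limit; runs of members, genes outside the rule and the last 3 promoters were picked after their values were seen. The members, the 15 gene lists (252 genes) and the motifs were chosen with earlier results of these data known. Alternatives were other folds and minimums, TMM factors (edgeR 4.0.16), size factors (DESeq2 1.42.0), binary counts, thinning and left-out cells. Versions were R 4.3.3, pandas 2.3.3, Python 3.11.15, scipy 1.17.1 and numpy 2.4.6.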

Additional observations from a re-analysis of the deposited data

How the results depend on the processing

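The number of members was 756 with a 2-fold limit, 1086 with at least 200 counts, 1194 with at least 50 counts per set, 85 where the interval had to lie past 1.5-fold in both sets, and 474 of 21349 peaks when alloBMT counts were thinned to the PT-Cy totals, of which 313 were members before. It was 2214 with DESeq2 size factors, 2215 with TMM factors and 3483 without the minimum of 100 counts. Without CD4 cells that carry a Cd8b1 UMI it was 2210, of which 1806 were members before. Without the 5% of cells with the most counts it was 2109, of which 1670 were members before. The percent of genes with a member and at least 1.5-fold lower RNA, 19.5%, was 24.5% at 2-fold, 29.4% for members past the interval, 32.8% after thinning, 38.5% with at least 2 members and 25.5% within CD4 cluster 4. The percent within 2 kb of a gene end, 11.8%, was 8.24% for members past the interval, 15.2% after thinning, 6.79% at 1 kb and 39.3% at 10 kb. Members with almost no PT-Cy counts numbered 1 at 0 counts and 71 at no more than 5. Of members with at least 5 counts in CD4 cluster 4, 61.2% were at least 1.5-fold lower there, against 31.2% of all such peaks. In CD8 clusters 1, 2, 5 and 6 the shares were 67.4%, 60.4%, 43.6% and 59.7%, against 45.2%, 14.7%, 23.2% and 21.6% of all peaks. No paired analysis was possible because each group has 1 library. PT-Cy depth, a median of 15 counts per member, limits all single-peak values.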
